A study of Zea mays with 8 samples.

Results

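The contrast between aleurone and starchy endosperm was compared between 2 ages of the maize kernel, to find the genes whose tissue difference was not the same at 22 as at 18 days after pollination (DAP). RNA sequencing libraries came from greenhouse kernels of the inbred line B73, with no other genotype and no treatment. There were 4 groups of 2 biological replicates: aleurone at 22 DAP, starchy endosperm at 22 DAP, aleurone at 18 DAP and starchy endosperm at 18 DAP. The labels' protocols say that the kernels of each age came from 2 plants, and that thawed kernels were peeled mechanically into the 2 tissues, so each library is a dissected bulk tissue. The quantity followed for each gene is the interaction, the aleurone minus starchy endosperm difference at 22 DAP minus the same difference at 18 DAP, in log2 units. It was fitted to all 8 libraries with the replicate number as a block. Of 39475 genes in the deposited tables, 19058 passed the filter on low counts, and the 12224 of these with a count in at least 7 of the 8 libraries are described. A positive value means that aleurone gained on starchy endosperm between 18 and 22 DAP, either by being higher in aleurone or by being lower in starchy endosperm at the later age.

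The maize endosperm has a single outer layer of aleurone cells, which store oil and mineral reserves and stay alive in the dry seed. The starchy endosperm beneath it fills with starch and with zeins, the alcohol-soluble storage proteins that are folded and packed in the endoplasmic reticulum (ER) with the help of chaperones. During the later filling stages the starchy cells keep depositing reserves while the tissue dries and its cells begin to die.

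Total counts per library lay between 2473036 and 11529170. The replicate 2 library of starchy endosperm at 22 DAP stood apart, with 9335 genes detected against 14186 to 23154 in the other libraries. The 8 aleurone marker genes that were found summed to 9863 and 26767 TPM (a share of transcripts corrected for gene length; replicates 1 and 2, in this order throughout) in aleurone at 22 DAP, against 53.6 and 61.8 TPM in starchy endosperm. At 18 DAP they summed to 17702 and 34598 TPM in aleurone, against 57.4 and 57.6 TPM in starchy endosperm, and c1 was at 0 in every library. The 10 starchy endosperm markers summed to 10386 and 11198 TPM in aleurone at 22 DAP, against 46496 and 52569 TPM in starchy endosperm, and to 10101 and 10274 TPM in aleurone at 18 DAP, against 52180 and 58161 TPM in starchy endosperm. Each tissue had the higher sum of its own markers at both ages, mostly from FL2 in starchy endosperm and from plt1 and ole1 in aleurone. Not every marker followed its sum. At 18 DAP pbf1 (GRMZM2G146267) was at 29.8 and 17.1 TPM in aleurone, against 12.7 and 4.92 TPM in starchy endosperm. At 22 DAP o2, wx1, dek1 and the pbf1 genes overlapped between the tissues. The starchy endosperm markers were also present in the aleurone libraries. Markers of the basal transfer layer, embryo and pericarp summed to at most 2.98 TPM in any library. Many of them were at 0 in every library, and only p1 and rbcs1 stood for pericarp, so these sums say little about other kernel tissues. The wider gene lists reached 20.9 TPM for the basal transfer layer, 45.5 TPM for the embryo and 508 TPM for photosynthesis, each in an aleurone library. In starchy endosperm libraries the same lists reached 17.05, 5.25 and 462 TPM. In bulk tissue, fewer cells of a type and less RNA per cell cannot be told apart.

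No gene passed the test for a changed tissue difference. edgeR's quasi-likelihood test called 0 of 12224 genes (0% of them, and 0% of all 19058 tested) at an adjusted p under 0.05, with an adjusted p of 1 for the leading gene. At an unadjusted p under 0.05 there were 489 of all tested genes (2.57%) and 256 of those described (2.09%), of which 199 (1.63%) had a positive and 57 (0.466%) a negative interaction. Without the replicate block 108 of those described were under it. DESeq2 called 4 of the genes described and limma-voom called 3, and limma on log2 TPM called 0. With 2 libraries a group the test was imprecise: the median standard error (SE) of the interaction was 1.46 log2 units and the median half-width of its 95% interval was 3.51. Among the 776 genes with a mean of at least 100 scaled CPM, a count as a share of the scaled library,, these were 0.392 and 0.943, and 106 genes (13.7%) lay under an unadjusted p of 0.05, 91 (11.7%) positive and 15 (1.93%) negative. The genes named here are thus those leading an uncalled ranking, chosen by a rule and given with their values in every library.

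The tissue differences themselves were much alike at the 2 ages. Across the 12224 genes the difference at 22 DAP correlated with that at 18 DAP with Pearson's r of 0.64 and Spearman's rho of 0.562, a description across genes that share the same libraries. Of genes called as tissue differences, 480 (3.93%) passed at 22 DAP, 228 (1.87%) of them higher and 252 (2.06%) lower in aleurone. At 18 DAP 687 (5.62%) passed, 239 (1.96%) of them higher and 448 (3.66%) lower in aleurone. Without scaling factors there were 2263 calls at 22 DAP, 2167 of them higher in aleurone, and 1919 at 18 DAP, 1802 of them higher in aleurone. At both ages 417 genes were called, all with the same sign, which is 86.9% of the calls at 22 DAP and 60.7% of those at 18 DAP. A further 333 genes were called at 1 age only, 63 at 22 DAP and 270 at 18 DAP. Of these, 327 had the same sign at the other age and 0 had a called interaction, and 84 (25.2%) had one at an unadjusted p under 0.05.

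**Figure D1:**
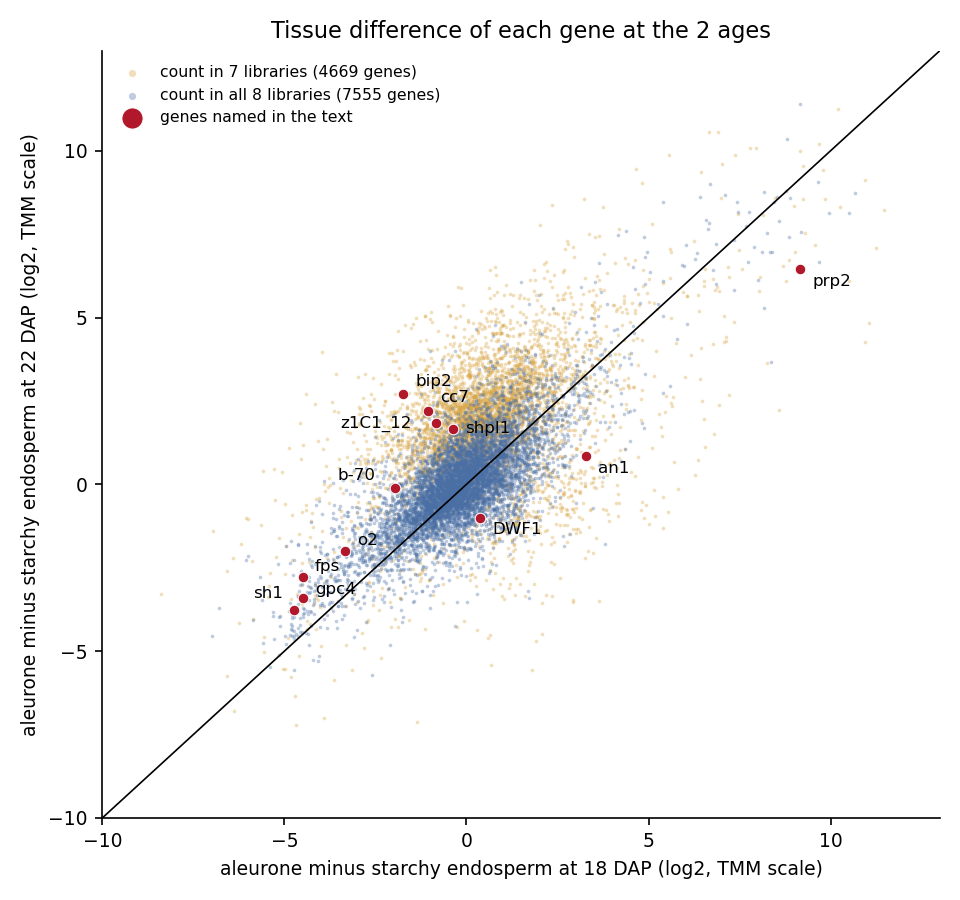
Tissue difference (aleurone minus starchy endosperm, log2, TMM scale) at 22 DAP on the vertical axis against 18 DAP on the horizontal axis, 1 point for each of the 12224 genes, with the line of equal differences. Genes counted in 7 libraries lie mostly above the line, genes counted in all 8 libraries lie along it, and the 12 genes marked in red are described in the text.

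The scale of a tissue difference depended on the normalisation, while its change with age hardly did. TMM factors were 1.53 to 1.95 in aleurone and 0.537 to 0.645 in starchy endosperm, whose counts are mostly zein. They lowered the aleurone minus starchy endosperm difference by 1.54 log2 units at 22 DAP and by 1.67 at 18 DAP, and so raised the interaction by only 0.12. Without the factors the sign of the tissue difference turned for 28.4% of genes at 22 DAP and for 37.7% at 18 DAP, against 3.86% of genes for the interaction. For this reason levels are given below as TPM, on which aleurone was the higher tissue for most genes, and folds between tissues are ratios of mean TPM. TPM carries no such factors, so these folds lie further toward aleurone than on the TMM scale. At 18 DAP bip2, b-70, shpl1 and Hsp70 had a higher mean TPM in aleurone. Their TMM differences there were -1.74, -1.95, -0.37 and -0.48. The median interaction of the genes described was 0.50 with TMM and 0.32 to 0.42 with library size only, upper quartile or DESeq2 size factors, so an interaction near 0.50 is that of a middle gene.

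The gene at the head of the ranking was cc7 (GRMZM2G148925), which encodes a cystatin, an inhibitor of cysteine proteases. It had 349.9 and 503 TPM in aleurone at 22 DAP, against 13.3 and 41.0 TPM in starchy endosperm, and 97.8 and 111 TPM in aleurone at 18 DAP, against 35.6 and 73.8 TPM in starchy endosperm. Aleurone at 22 DAP was above every other library, and starchy endosperm at 22 DAP had the lowest library, although the starchy endosperm libraries of the 2 ages overlapped. Mean TPM in aleurone was 15.7-fold that in starchy endosperm at 22 DAP and 1.91-fold at 18 DAP, where the TMM scale turned the difference round, to -1.06. The interaction was 3.27 (SE 0.37), with 3.21 in replicate 1 and 3.38 in replicate 2. By edgeR's quasi-likelihood test its unadjusted p was 7.76e-05 and its adjusted p was 1. The adjusted p was 0.00747 by DESeq2 and 0.0457 by limma-voom. Another cystatin gene, cc6 (GRMZM2G401328), had at most 15.3 TPM in aleurone and an interaction of 2.87 (SE 1.08), with 0.93 in replicate 1 and 4.37 in replicate 2.

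Second in the ranking was z1C1_12 (GRMZM2G088365), a member of the 22-kDa alpha zein cluster. Its levels were 1566 and 1693 TPM in aleurone at 22 DAP, against 116 and 121 TPM in starchy endosperm, and 1031 and 1038 TPM in aleurone at 18 DAP, against 403 and 465 TPM in starchy endosperm. No 2 of the groups overlapped, and the replicates of each group lay close together. Mean TPM in aleurone was 13.8-fold that in starchy endosperm at 22 DAP and 2.38-fold at 18 DAP. At 18 DAP the TMM scale again turned the difference round, to -0.84, and at 22 DAP it was 1.83. The zein list had a median of -3.96 on that scale at 22 DAP and -4.48 at 18 DAP. Most zein genes were thus higher in starchy endosperm at both ages, unlike z1C1_12 at 22 DAP. Its interaction was 2.67 (SE 0.34), with 2.35 in replicate 1 and 3.01 in replicate 2, and the adjusted p was 1 by edgeR, 0.00747 by DESeq2 and 0.011 by limma-voom. Zein genes are near-identical copies, so RSEM's division of reads among them is uncertain, although its posterior SD for this gene was small (at most 0.294 times the square root of the count).

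**Figure D2:**
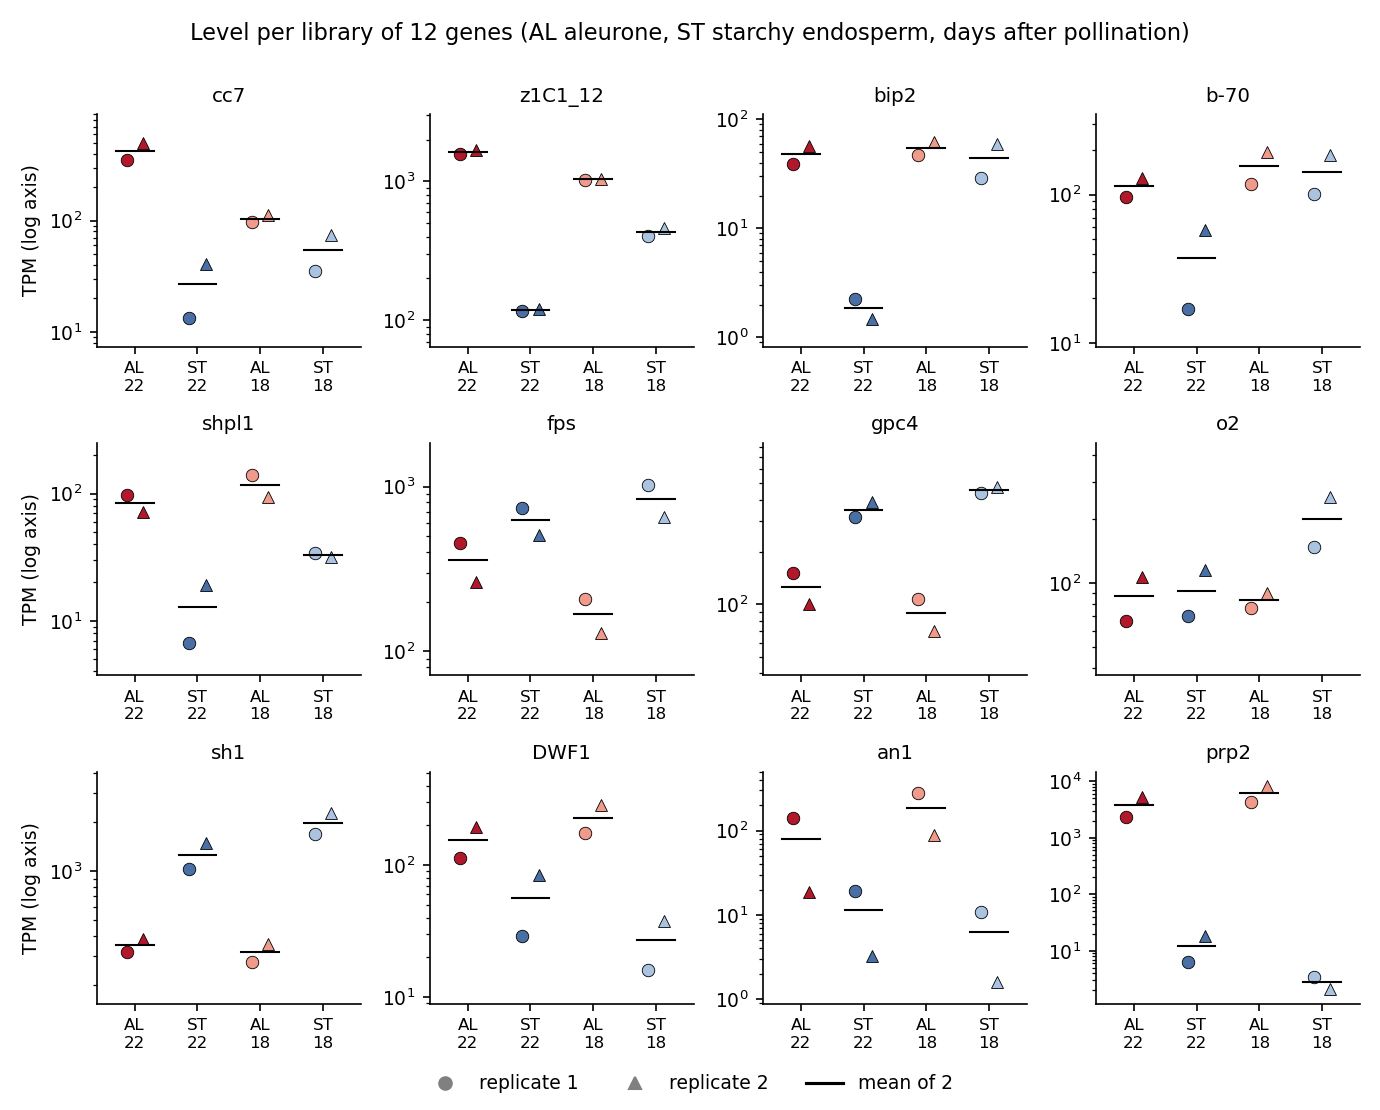
TPM in each library (log axes) of 12 genes, with groups in the order aleurone (AL) 22 DAP, starchy endosperm (ST) 22 DAP, aleurone 18 DAP and starchy endosperm 18 DAP, circles for replicate 1, triangles for replicate 2 and lines for the mean of 2 libraries. For cc7 the aleurone libraries at 22 DAP sit highest at 349.9 and 503 TPM, for bip2 the starchy endosperm libraries at 22 DAP sit lowest at 2.27 and 1.48 TPM, and for sh1 and fps the 2 tissues lie closer together at 22 than at 18 DAP.

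Among the leading named genes were 3 for chaperones of the ER, grouped here after their values were seen, and in each the 2 libraries of starchy endosperm at 22 DAP were the lowest. The largest interaction was that of bip2 (GRMZM2G415007), 1 of 2 genes for the lumenal chaperone BiP. It had 38.6 and 57.6 TPM in aleurone at 22 DAP, against 2.27 and 1.48 TPM in starchy endosperm, and 46.8 and 62.0 TPM in aleurone at 18 DAP, against 29 and 59.3 TPM in starchy endosperm. Both starchy endosperm libraries at 22 DAP were far under all 6 others, which overlapped. The interaction was 4.44 (SE 0.74), with 3.32 in replicate 1 and 5.49 in replicate 2, and the adjusted p was 1 by edgeR and 0.00747 by DESeq2. The other BiP gene, b-70 (GRMZM2G114793), was at 97.0 and 130.0 TPM in aleurone at 22 DAP, against 17.0 and 57.5 TPM in starchy endosperm, and 117 and 194 TPM in aleurone at 18 DAP, against 101 and 184 TPM in starchy endosperm. Its 2 lowest libraries were again those of starchy endosperm at 22 DAP, and its interaction was 1.85 (SE 0.32). This small SE depended on the replicate block. By edgeR's quasi-likelihood test the unadjusted p of b-70 was 0.00086 with the block and 0.080 without it. For bip2 the same p-values were 0.00073 and 0.00062. BiP genes are close in sequence, and reads shared between them would tie their values together.

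The third was shpl1 (GRMZM2G399073), not on the list of ER genes, whose counterpart in Arabidopsis, SHEPHERD, is the ER form of the HSP90 chaperone. Levels of shpl1 were 96.5 and 72.1 TPM in aleurone at 22 DAP, against 6.72 and 19.1 TPM in starchy endosperm, and 139 and 94.0 TPM in aleurone at 18 DAP, against 34.0 and 31.5 TPM in starchy endosperm. Starchy endosperm at 22 DAP was lowest without overlap, and the interaction was 2.02 (SE 0.33). On TPM the change was smaller, at 0.99 with an unadjusted p of 0.27 by limma on log2 TPM. Calnexin, a lectin chaperone of the ER membrane, was represented by CNX (GRMZM2G022180) at 166 and 100.3 TPM in aleurone at 22 DAP, against 16.1 and 15.3 TPM in starchy endosperm, and 262 and 172 TPM in aleurone at 18 DAP, against 58.8 and 37.5 TPM in starchy endosperm. Both tissues were lower at 22 DAP without overlap between the ages, starchy endosperm more so, and the interaction was 1.03 (SE 0.32). By contrast, the protein disulfide isomerase gene pdi (GRMZM2G091481), the most abundant of the list, had an interaction of 0.32 (SE 0.30).

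Over the list of ER folding genes, 23 of 25 were counted in at least 7 libraries. Their median interaction was 0.64, against 0.50 for all genes, and 0 were called. At an unadjusted p under 0.05 there were 3 positive and 0 negative members, namely bip2, b-70 and CNX, against 2.09% of all genes described. Of the 6 abundant members 2 were among them, against 13.7% of all abundant genes. Together the list made up 0.374% and 0.334% of counts in aleurone at 22 DAP, against 0.163% and 0.190% in starchy endosperm, and 0.461% and 0.419% in aleurone at 18 DAP, against 0.278% and 0.302% in starchy endosperm. The share was thus lower at 22 DAP in both tissues, without overlap between the ages.

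Cytosolic and organellar heat shock genes are a separate branch of the folding machinery. Of 29 listed genes 22 were counted in at least 7 libraries, with a median interaction of 1.02, which was 0.39 in replicate 1 and 1.42 in replicate 2. At an unadjusted p under 0.05, 2 were positive and 0 negative, against 2.09% of all genes described. Of the 4 abundant members 1 was among them, against 13.7% of all abundant genes. Hsp70 (GRMZM2G310431) was at 143 and 304 TPM in aleurone at 22 DAP, against 23.2 and 59.8 TPM in starchy endosperm, and 243 and 429.9 TPM in aleurone at 18 DAP, against 72.2 and 152 TPM in starchy endosperm. Starchy endosperm at 22 DAP was lowest without overlap, and the interaction was 1.03 (SE 0.29). The second was hsp101 (GRMZM2G360681), for a chaperone that dissolves protein aggregates, with an interaction of 1.63 (SE 0.57). Several list members counted in 7 libraries had values beyond 2 in either direction with an SE above 2, so the list's median rests partly on imprecise genes.

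Among genes of sucrose use and starch synthesis, several that were higher in starchy endosperm had a smaller gap between the tissues at 22 DAP, without a call. The sucrose synthase gene sh1 (GRMZM2G089713), the main route of sucrose into starch, was at 317 and 385 TPM in aleurone at 22 DAP, against 1028 and 1487 TPM in starchy endosperm, and 275 and 359 TPM in aleurone at 18 DAP, against 1695 and 2273 TPM in starchy endosperm. The tissues stayed well apart at both ages, and starchy endosperm at 22 DAP was under starchy endosperm at 18 DAP without overlap. Mean TPM in aleurone was 0.279 times that in starchy endosperm at 22 DAP and 0.160 times at 18 DAP, with an interaction of 0.95 (SE 0.27), which was 0.85 in replicate 1 and 1.08 in replicate 2. The starch list held 19 genes counted in at least 7 libraries, with a median of 0.57 and 0 called. Of them 6 were positive and 1 negative at an unadjusted p under 0.05, and all 7 were among the list's 15 abundant genes, where the share over all abundant genes was 13.7%.

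Besides sh1 and sus2, the positive members were sbe1 (GRMZM2G088753) at 0.92 (SE 0.33), ss1 at 1.06 (SE 0.42), ae1 at 0.67 (SE 0.27) and pho1 at 0.82 (SE 0.34). They encode a starch branching enzyme, a starch synthase, the endosperm branching enzyme IIb and the plastidial starch phosphorylase. Not all were cases of a smaller gap. Mean TPM of sus2 in aleurone was 115-fold that in starchy endosperm at 22 DAP and 20.6-fold at 18 DAP. For sbe1 the folds were 2.27 and 1.33, while its TMM differences were -0.79 and -1.71. Set against the median gene at 0.50, ae1 lay only slightly above the middle. On the same footing sh1 was 0.46 and sbe1 0.43 above it, while the p-values test against 0. For sus2 (GRMZM2G318780), at 2.89 (SE 1.17), RSEM's posterior SD reached 2.73 times the square root of the count, so RSEM could not place its reads firmly and its value is uncertain. The negative member was sus1 (GRMZM2G152908), which encodes another sucrose synthase, with 807 and 1159 TPM in aleurone at 22 DAP, against 2.66 and 5.68 TPM in starchy endosperm, and 792 and 1005 TPM in aleurone at 18 DAP, against 1.66 and 2.07 TPM in starchy endosperm. Both its starchy endosperm libraries at 22 DAP were above those at 18 DAP, at under 6 TPM, and its interaction was -0.84 (SE 0.30).

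The subunits of ADP-glucose pyrophosphorylase, the first committed enzyme of starch synthesis, are encoded by bt2 and sh2, and neither stood out. The small subunit gene bt2 (GRMZM2G068506) was at 233 and 82.2 TPM in aleurone at 22 DAP, against 1721 and 909 TPM in starchy endosperm, and 289 and 139 TPM in aleurone at 18 DAP, against 2349 and 1193 TPM in starchy endosperm. Mean TPM in aleurone was 0.120 times that in starchy endosperm at 22 DAP and 0.121 times at 18 DAP, and the interaction was 0.04 (SE 0.26), with a 95% interval of -0.60 to 0.67. The large subunit gene sh2 was at 0.44 (SE 0.26), with an interval of -0.19 to 1.07. The granule-bound starch synthase gene wx1, with an interval of -0.34 to 1.11, was at 0.38 (SE 0.30). None of the 3 passed an unadjusted p of 0.05, and each interval contains both 0 and the median gene's 0.50.

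Zeins as a family lay near the middle of all genes. All 26 listed genes were counted in at least 7 libraries, their median interaction was 0.42 against 0.50 for all genes, and 0 were called. At an unadjusted p under 0.05, 3 were positive (z1C1_12, z1C1_8 and z1B_8) and 0 negative, which is 3 of the 23 abundant members against 13.7% of all abundant genes. The alpha zein gene FL2 (GRMZM2G397687) was near the family's median, at 6763 and 7316 TPM in aleurone at 22 DAP, against 33219.5 and 39979 TPM in starchy endosperm, and 6929 and 6974 TPM in aleurone at 18 DAP, against 36662 and 43279 TPM in starchy endosperm. Within each tissue its ages overlapped, and its interaction was 0.31 (SE 0.27). Zeins made up 10.0% and 11.7% of counts in aleurone at 22 DAP, against 59.2% and 62.7% in starchy endosperm, and 7.94% and 8.97% in aleurone at 18 DAP, against 56.4% and 59.8% in starchy endosperm. The zein share of the aleurone libraries was higher at 22 DAP without overlap, and its part in the interactions of other genes that starchy endosperm expresses more was not tested.

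Of the regulators of filling, o2, which encodes the bZIP factor OPAQUE2 that activates zein genes, led its list. Levels of o2 (GRMZM2G015534) were 66.6 and 107 TPM in aleurone at 22 DAP, against 69.98 and 115 TPM in starchy endosperm, and 77.1 and 90.4 TPM in aleurone at 18 DAP, against 149 and 255 TPM in starchy endosperm. On TPM the tissues overlapped at 22 DAP, and at 18 DAP starchy endosperm was higher without overlap. On the TMM scale the difference was -2.01 at 22 DAP and -3.34 at 18 DAP. The interaction was 1.33 (SE 0.34), with 0.83 in replicate 1 and 1.81 in replicate 2. It was the only 1 of 7 list members under an unadjusted p of 0.05, against 2.09% of all genes described. It was also the list's 1 abundant member, and 13.7% of all abundant genes lay under that p. The prolamin-box factor gene pbf1 (GRMZM2G146283) had -0.22 in replicate 1 and 1.8 in replicate 2, opposite signs in the replicates, and an interaction of 0.87 (SE 0.64). The second gene of that name, GRMZM2G146267, had the other sign, at -0.97 to -0.024 over the 8 fits without 1 library each.

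A pair of isoprenoid genes had a positive interaction with higher aleurone values at 22 DAP. The gene fps (GRMZM2G168681), for farnesyl pyrophosphate synthase, which makes the precursor of sterols, was at 453 and 262 TPM in aleurone at 22 DAP, against 746 and 510.0 TPM in starchy endosperm, and 207 and 128 TPM in aleurone at 18 DAP, against 1024 and 655 TPM in starchy endosperm. Aleurone at 22 DAP was above aleurone at 18 DAP without overlap, while starchy endosperm of the 2 ages overlapped. Mean TPM in aleurone was 0.569 times that in starchy endosperm at 22 DAP and 0.199 times at 18 DAP. The interaction was 1.73 (SE 0.27), with 1.58 in replicate 1 and 1.89 in replicate 2. The phytoene desaturase gene Pds (GRMZM5G815358), of carotenoid synthesis, was at 42.6 and 23.9 TPM in aleurone at 22 DAP, against 20.4 and 4.30 TPM in starchy endosperm, and 14.8 and 4.33 TPM in aleurone at 18 DAP, against 18.1 and 12.3 TPM in starchy endosperm. Its aleurone libraries at 22 DAP were above those at 18 DAP, and its interaction was 2.77 (SE 0.99). The second gene of that name, GRMZM2G410515, had the other sign, at -1.20 (SE 1.08). The list of 8 genes had a median of 1.23. At an unadjusted p under 0.05, 2 of its members were positive and 0 negative, against 2.09% of all genes described. The list's 1 abundant member, fps, was among them, against 13.7% of all abundant genes.

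Genes of glycolysis and fermentation had a median of 0.27 over 18 genes. Of them 1 lay under an unadjusted p of 0.05, against 2.09% of all genes described. It was among the list's 13 abundant members, where the share over all abundant genes was 13.7%. The 1 member under an unadjusted p of 0.05 was gpc4 (GRMZM2G176307), for a cytosolic glyceraldehyde-3-phosphate dehydrogenase, at 151 and 100.1 TPM in aleurone at 22 DAP, against 316 and 386 TPM in starchy endosperm, and 108 and 70.2 TPM in aleurone at 18 DAP, against 437 and 472 TPM in starchy endosperm. Aleurone of the 2 ages overlapped, and starchy endosperm at 22 DAP was lower without overlap. Its interaction was 1.08 (SE 0.26), which was 0.58 above the median gene. The related gpc3 and GPC1 were at 0.59 (SE 0.48) and 0.65 (SE 0.52). By contrast, mean TPM of gpc2 in aleurone was 13.4-fold that in starchy endosperm at 22 DAP and 19.4-fold at 18 DAP.

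In amino acid metabolism, lkrsdh1 (GRMZM2G181362) encodes the enzyme that begins lysine breakdown. It was at 358 and 238 TPM in aleurone at 22 DAP, against 16.0 and 12.3 TPM in starchy endosperm, and 824 and 605 TPM in aleurone at 18 DAP, against 59.2 and 38.6 TPM in starchy endosperm. Both tissues were lower at 22 DAP without overlap, and the interaction was 1.25 (SE 0.37). It was 0.43 by limma on log2 TPM and 0.93 to 1.55 without 1 library. The asparagine synthetase genes Asn1 (GRMZM2G154182) and asn2 (GRMZM2G093175) went apart, at 1.16 (SE 0.37) and -4.41 (SE 1.34), but asn2 had starchy endosperm levels of 0.160 and 1.12 TPM at 22 DAP and of 0.120 and 0 TPM at 18 DAP. Its value therefore rests on few counts.

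Several positive leaders were aleurone genes that were lower in starchy endosperm at 22 DAP. TIP3-1 (GRMZM2G305446), for a channel protein of the storage vacuole membrane, was at 134 and 520.1 TPM in aleurone at 22 DAP, against 2.5 and 6.47 TPM in starchy endosperm, and 139.5 and 379 TPM in aleurone at 18 DAP, against 10.5 and 67.4 TPM in starchy endosperm. Starchy endosperm at 22 DAP was lowest without overlap, and the interaction was 3.21 (SE 0.60), with 1.89 in replicate 1 and 4.13 in replicate 2. The oleosin gene ole17 had an interaction of 1.54 (SE 0.54), with at most 2.25 TPM in starchy endosperm, and it was at 0.41 without starchy endosperm at 22 DAP replicate 2. For the histone H4 gene H4C13, at 2.87 (SE 0.83), starchy endosperm at 22 DAP had 4.21 and 1.87 TPM, against 3.49 and 43.7 TPM at 18 DAP, so the replicates differed. AR3 (GRMZM2G169943), at 3.65 (SE 0.70), had starchy endosperm levels of 0 and 0.0900 TPM at 22 DAP and of 0.370 and 1.66 TPM at 18 DAP, so that its value again rests on few counts. The translation factor gene tif1, with over 100 TPM in every library, was at 1.06 (SE 0.27).

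Negative interactions mark genes whose aleurone minus starchy endosperm difference was smaller at 22 DAP. Among genes with a name the leading one was DWF1 (GRMZM2G057000), for a sterol reductase of brassinosteroid synthesis, at 114 and 194 TPM in aleurone at 22 DAP, against 29.1 and 84.2 TPM in starchy endosperm, and 174 and 285 TPM in aleurone at 18 DAP, against 15.9 and 37.7 TPM in starchy endosperm. Aleurone of the 2 ages overlapped, and in starchy endosperm 29.1 TPM in a library at 22 DAP lay under 37.7 TPM in a library at 18 DAP. Within each replicate, however, aleurone was lower and starchy endosperm higher at 22 DAP, and mean TPM in aleurone was 2.72-fold that in starchy endosperm at 22 DAP, where the TMM scale turned the difference round, to -0.998, and 8.55-fold at 18 DAP. Its interaction was -1.36 (SE 0.27), with -1.41 in replicate 1 and -1.30 in replicate 2 and an adjusted p of 1.

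The gibberellin synthesis gene an1 (GRMZM2G081554) was at 140.4 and 18.7 TPM in aleurone at 22 DAP, against 19.4 and 3.29 TPM in starchy endosperm, and 279.7 and 89.5 TPM in aleurone at 18 DAP, against 10.8 and 1.58 TPM in starchy endosperm. Replicates differed more than ages, but within each replicate aleurone was lower and starchy endosperm higher at 22 DAP, and the interaction was -2.43 (SE 0.57). The gene dbf1 (GRMZM2G061487), for a drought-responsive AP2-type factor, was at 19.9 and 21.5 TPM in aleurone at 22 DAP, against 9.52 and 28.4 TPM in starchy endosperm, and 49.9 and 67.0 TPM in aleurone at 18 DAP, against 7.45 and 13.2 TPM in starchy endosperm. Aleurone at 22 DAP was lower without overlap, and the interaction was -2.24 (SE 0.65). A chromatin assembly gene, nfa101, was at -1.71 (SE 0.55).

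Other negative leaders were far more abundant in aleurone than in starchy endosperm. The gene prp2 (GRMZM2G102356), from the cell wall list, was at 2368 and 5355 TPM in aleurone at 22 DAP, against 6.25 and 18.3 TPM in starchy endosperm, and 4231 and 8309 TPM in aleurone at 18 DAP, against 3.47 and 2.07 TPM in starchy endosperm. The tissues were over 100-fold apart at both ages, starchy endosperm at 22 DAP was above 18 DAP without overlap, and the interaction was -2.70 (SE 0.71). The gene acpt1 (GRMZM2G175818) was at 829 and 646 TPM in aleurone at 22 DAP, against 87.8 and 128 TPM in starchy endosperm, and 989 and 744 TPM in aleurone at 18 DAP, against 53.1 and 34.5 TPM in starchy endosperm. Starchy endosperm was again higher at 22 DAP without overlap, and the interaction was -1.38 (SE 0.38). The allene oxide cyclase gene aoc1, of jasmonate synthesis, had 1.24 and 18.0 TPM in starchy endosperm at 22 DAP, against 0.630 and 0.0800 TPM at 18 DAP. Its interaction was -4.70 (SE 1.49), and that of DGAT1-2, which makes storage oil, was -5.30 (SE 1.90), both with intervals several log2 units wide.

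For these genes the level of aleurone markers in starchy endosperm stands beside the result. The sum over the list was 53.6 and 61.8 TPM at 22 DAP and 57.4 and 57.6 TPM at 18 DAP, so the ages overlapped, and c1 and vp1 were at 0 there. The most abundant marker, the lipid transfer protein gene plt1 (GRMZM2G101958), was at 6875 and 16977 TPM in aleurone at 22 DAP, against 23.4 and 23 TPM in starchy endosperm, and 14636 and 28034 TPM in aleurone at 18 DAP, against 15.1 and 13.2 TPM in starchy endosperm. Aleurone values overlapped, starchy endosperm values were higher at 22 DAP, and the interaction was -1.42 (SE 0.76), not under an unadjusted p of 0.05. The part of aleurone RNA in these starchy endosperm values was not tested.

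Regulators of aleurone identity did not pass an unadjusted p of 0.05. Nkd1 and Nkd2, which encode paired factors needed for aleurone differentiation, were at 1.39 (SE 0.68) and 0.74 (SE 0.60). Intervals ran over -0.25 to 3.03 for Nkd1 and over -0.70 to 2.18 for Nkd2. The oleosin gene ole1 was at 0.72 (SE 0.64). The abscisic acid response factor gene vp1 had counts in the 4 aleurone libraries only, at 23.5 and 61.9 TPM at 22 DAP and 34.1 and 47.7 TPM at 18 DAP, so it has no interaction to give.

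**Figure D3:**
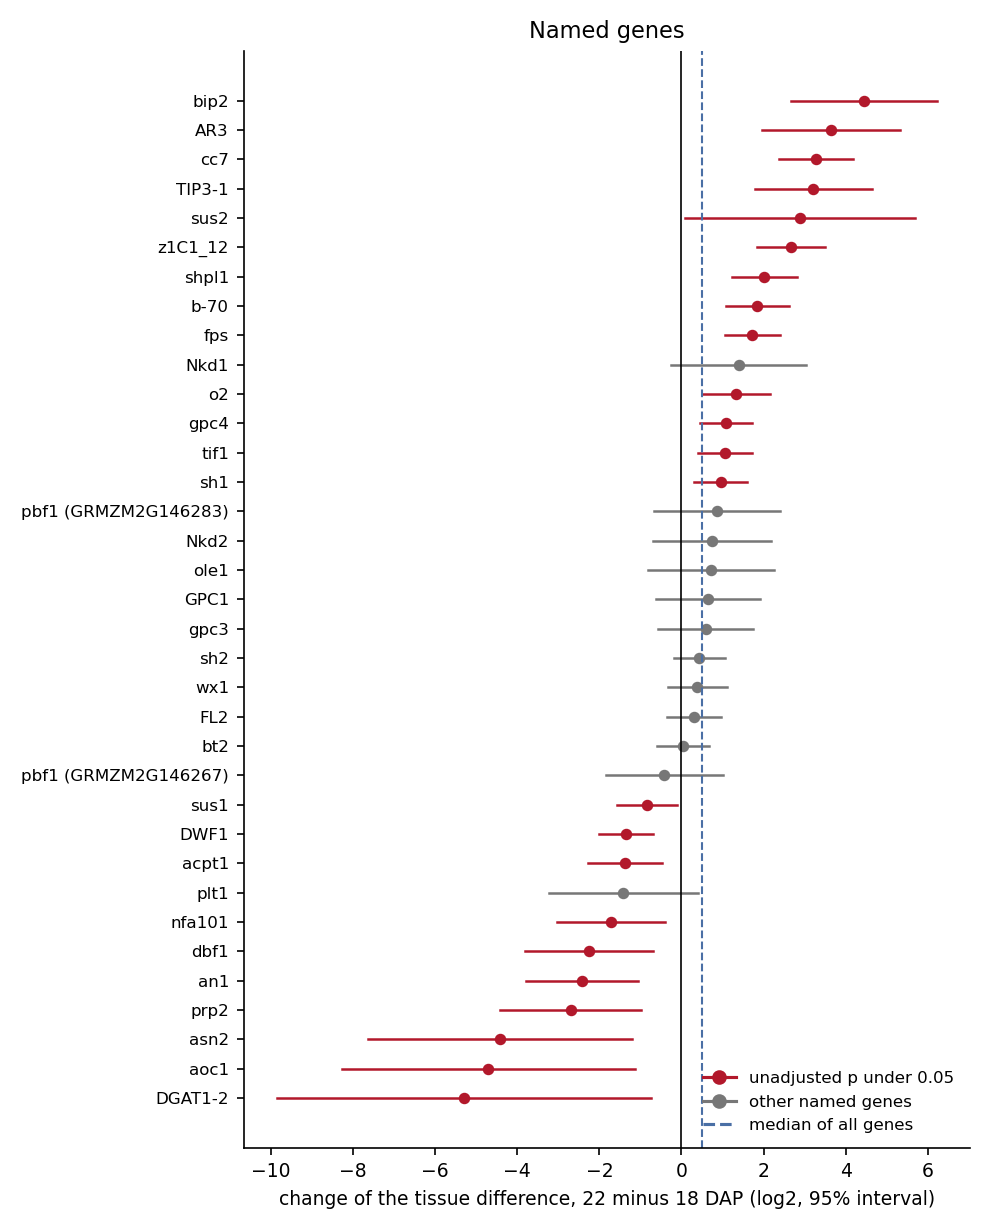
Interaction (22 minus 18 DAP change of the aleurone minus starchy endosperm difference, log2) with its 95% interval for the leading genes in each direction and the classical endosperm genes, in red where the unadjusted p was under 0.05. Intervals of bt2, sh2, wx1 and FL2 include both 0 and the median of all genes at 0.50 (dashed), and those of DGAT1-2, aoc1 and asn2 are the widest.

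Across the 22 lists with at least 5 described members, medians lay between 0.07 for auxin genes and 1.26 for cell cycle genes, on both sides of the 0.50 of all genes, and 0 members were called. The cell cycle genes, 12 of them, had 0 members under an unadjusted p of 0.05; their median was 0.33 in replicate 1 and 4.20 in replicate 2. Histones, 9 genes, had a median of 1.05, with 0.33 in replicate 1 and 2.2 in replicate 2. Replicate 2 holds the starchy endosperm library at 22 DAP with few detected genes, and its part in these medians was not tested. Cytosolic ribosome genes, which are abundant, were closer to the middle, with a median of 0.40 over 38 genes, 4 of them positive and 0 negative at an unadjusted p under 0.05. These 4 were among its 17 abundant members, against 13.7% of all abundant genes. Neither the basal transfer layer nor the embryo list had more than 2 described members.

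**Figure D4:**
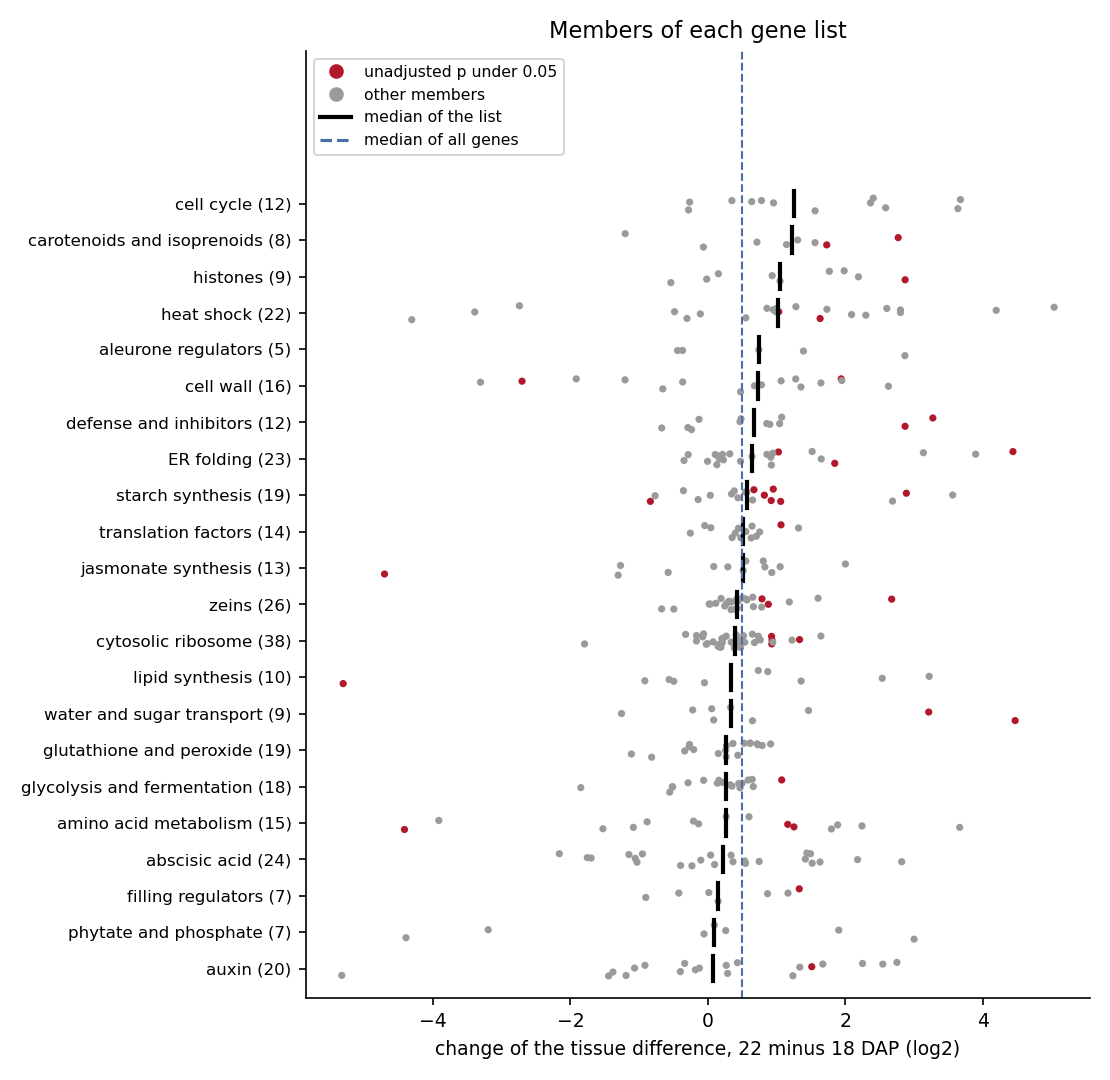
Interaction (log2) of each member of the 22 gene lists with at least 5 members counted in at least 7 libraries, in red where the unadjusted p was under 0.05, with the median of each list as a black bar and the median of all genes as a dashed line. List medians lie on both sides of the 0.50 of all genes, and the members of the cytosolic ribosome and zein lists spread less than those of the heat shock and auxin lists.

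Splitting the interaction into its arms, 0 genes were called between 22 and 18 DAP in aleurone (246, or 2.01%, at an unadjusted p under 0.05) and 0 in starchy endosperm (496, or 4.06%). Of the starchy endosperm genes 363 (2.97%) were lower and 133 (1.09%) higher at 22 DAP, and of the aleurone genes 168 (1.37%) were higher and 78 (0.638%) lower. The starchy endosperm balance turned with upper quartile factors (381 of 664 higher) and without starchy endosperm at 18 DAP replicate 1 (677 of 919 higher). When the fit was restricted to the 7556 genes counted in all 8 libraries (1 of them outside the filter on low counts), 6 genes (0.0794%; 4, or 0.0529%, higher and 2, or 0.0265%, lower) were called in aleurone and 14 (0.185%; 1, or 0.0132%, higher) in starchy endosperm, while the interaction again had 0 calls (0%; 477, or 6.31%, unadjusted). In that fit cc7 and fps rose in aleurone at 22 DAP, by 2.06 and 1.23 log2 units, with edgeR adjusted p of 0.0485 for each. In starchy endosperm 13 of the 14 called genes fell, among them bip2 at -4.50, TIP3-1 at -2.93, shpl1 at -2.27, lkrsdh1 at -2.06, b-70 at -2.02, z1C1_12 at -1.8, CNX at -1.51 and Hsp70 at -1.43, with edgeR adjusted p from 0.0109 to 0.0469. Of 19 ER folding genes in that fit, 3 fell in starchy endosperm, against 0.172% of all genes. These were bip2, b-70 and CNX, the members already named for their interaction. The starchy endosperm change is 1 arm of that interaction, so this count is not separate support. The bZIP factor gene lip15 rose in both tissues, by 2.47 in aleurone and 1.85 in starchy endosperm, and had an interaction of 0.62. Leading interaction p-values in this fit were closer to the threshold, at an adjusted p of 0.0515 for z1C1_12 and 0.0813 for cc7.

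Across the transcriptome the interactions of the replicates correlated weakly. The interaction computed within replicate 1 correlated with that within replicate 2 with Pearson's r of 0.0838 and Spearman's rho of 0.084 across 12224 genes. For the 776 abundant genes r was 0.242 and rho 0.319. The sign was the same in both replicates for 6827 genes (55.8%), 4934 of them positive and 1893 negative. Medians were 0.13 in replicate 1 and 1.06 in replicate 2, so the positive median of all genes was mostly that of replicate 2.

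**Figure D5:**
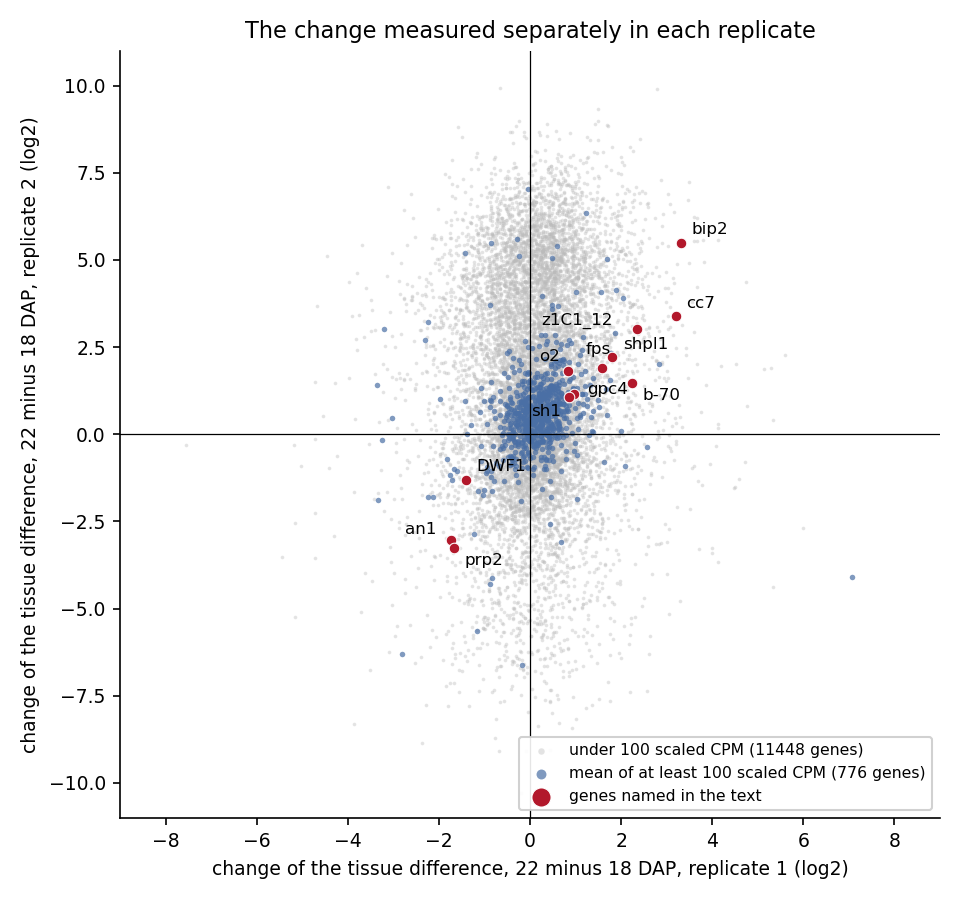
Interaction (log2) computed within replicate 1 on the horizontal axis and within replicate 2 on the vertical axis for 12224 genes, with the 776 genes of at least 100 scaled CPM in blue and the 12 plotted genes in red. The cloud is spread along the vertical axis and its replicate 2 values reach both ends, and the red genes lie on the same side of 0 in both replicates, which the rule for the leading genes required.

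The overall positive shift moved with 1 library. Of the 4669 genes with a count in exactly 7 libraries, 3807 lacked a count only in starchy endosperm at 22 DAP replicate 2, so the requirement of 7 libraries kept its dropouts. Their class had a median interaction of 1.43, against 0.19 for the 7555 genes counted in all 8 libraries. Leaving that library out gave a median of 0.07 and 0 calls. Leaving out the other starchy endosperm library at 22 DAP, so that this library stood alone for its group and was assumed to vary like the others, gave 2845 calls among the genes described, 2745 of them positive, and 1964 of them (69.0%) had no count in it. Calls of cc7 and z1C1_12 came in some fits without 1 library and not in others, and each such fit leaves 1 library in a group. Over the 8 fits without 1 library each, cc7 ran over 3.02 to 3.54, z1C1_12 over 2.37 to 3.01 and bip2 over 3.53 to 5.39. Negative leaders with few starchy endosperm counts moved further, prp2 over -3.61 to -1.47, aoc1 over -7.09 to -1.80, asn2 over -7.61 to -1.67 and DGAT1-2 over -10.45 to -3.27. In these 4 the low end was without starchy endosperm at 18 DAP replicate 1 and the high end without replicate 2 of that group.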

How the data were processed

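RNA-seq libraries of 2 tissues and 2 ages were analysed. Per the submitters' processing notes, the authors used FastQC, Bowtie2 2.2.3, SAMtools and RSEM 1.2.15 with B73 RefGen_v3; the sources used here name no annotation or strand setting. Deposited values are expected counts (RSEM estimates of reads per gene, unscaled), TPM, and a posterior SD of each count, per the file headers. Gene names came from a reference table of Zm-B73-REFERENCE-NAM-5.0, which held 18908 (47.9%) of the IDs, 2609 with a name.

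Expected counts were rounded, filtered by filterByExpr, scaled by TMM and fitted with edgeR 4.0.16 in R 4.3.3 (4 group means plus the replicate block, 5 contrasts, Benjamini-Hochberg over 19058 genes). A count means a rounded value of at least 1. SEs come from the F statistic. Within-replicate interactions use log2 CPM with a prior count of 2. The interaction of a replicate has no test, and p-values measure only the spread between these libraries. The fit was also run on counts drawn from its own fitted values and spread, with changes planted in well-counted genes only. That run checked the calculation, not whether the real libraries follow the fitted spread.

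The labels number the replicates without stating a shared plant. Differences between replicates correlated for each of the 6 group pairs (r between 0.187 and 0.407 over tested genes), but over the genes described r was 0.0869 between the starchy endosperm ages, so pairing is uncertain. The block was kept.

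Named genes have a mean of at least 5 TPM in a group, a name and the same sign in both replicates. They are the 10 lowest p-values in each direction, plus 2 members of each list of at least 5 tested genes (whatever the signs) and classical endosperm genes. Of these, c1 had no count, al9 was not found and vp1 was in 4 libraries; others were named to spell out small counts. Members, lists and tests were chosen with earlier results of these data known, and lists were matched by names. Alternatives used other scalings, filters, DESeq2 1.42.0, limma 3.58.1 (voom, and log2 TPM with a pseudocount of 1), a robust prior, no block and each library left out.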

Additional observations from a re-analysis of the deposited data

How the results depend on the processing

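The 0 interaction calls stayed at 0, over all tested and over described genes, without the replicate block, under 4 other scalings, under 3 other filters, with limma on log2 TPM and with a robust prior. DESeq2 gave 8 calls over all genes and 4 among those described (z1C1_12, cc7, bip2 and GRMZM2G045239), and limma-voom 3 and 3 (z1C1_12, cc7 and GRMZM2G012806). Leaving out 1 library gave 0 to 2936 interaction calls over all genes and 0 to 2845 among those described. Tissue calls without the replicate block were 242 at 22 DAP and 303 at 18 DAP, against 480 and 687 with it. They were 2263 and 1919 with library size only, 1246 and 1458 on genes counted in all 8 libraries, 1657 and 1521 with DESeq2, 989 and 1123 with limma-voom, and 8451 and 7783 with limma on log2 TPM. Upper quartile factors gave 800 at 22 DAP. Leaving out 1 library gave 189 to 5147 at 22 DAP and 85 to 2160 at 18 DAP.

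Age calls, 0 in each tissue, became 6 in aleurone and 14 in starchy endosperm on genes counted in all 8 libraries, 5 and 31 with DESeq2, and 31 and 4 with limma-voom. In starchy endosperm they were 2 with library size only and 1 each with upper quartile factors, no filter or a robust prior. Leaving out 1 library gave 0 to 4 in aleurone and 0 to 3920 in starchy endosperm, the highest being without starchy endosperm at 22 DAP replicate 1.

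Of genes at an unadjusted p under 0.05, 199 of 256 were positive, against 189 of 302 with upper quartile factors and 172 of 272 with DESeq2 size factors. Without starchy endosperm at 18 DAP replicate 1 the balance turned, with 142 of 696 positive.

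Some interactions changed sign between settings. bt2 was at -0.067 with library size only, -0.16 with upper quartile factors, -0.11 with DESeq2 size factors, -0.020 on genes counted in at least 7 libraries, -0.10 in all 8, -0.11 with DESeq2 and limma on log2 TPM, and -0.19 to 0.26 without 1 library. cr4, at 2.87 in the main fit and at most 0.67 TPM in starchy endosperm, was at -0.23 with limma on log2 TPM. vpe1, at 0.49 in the main fit, was at -0.20 with limma on log2 TPM. Without 1 library, vpe1 was at -0.18 to 0.98, ole1 at -0.36 to 1.25 and RAB15 at -0.019 to 0.47. The cause was not tested. With 2 libraries a group, most genes could show only changes of several log2 units.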

Other observations

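Among genes without a name in the reference table, 4 were singled out after their values were seen. GRMZM2G018820 had 203 and 296 TPM in aleurone at 22 DAP, against 4.0 and 7.42 TPM in starchy endosperm, and 575 and 709.5 TPM in aleurone at 18 DAP, against 34.8 and 62.3 TPM in starchy endosperm. It was lower at 22 DAP in both tissues without overlap, with an interaction of 2.12 (SE 0.32). GRMZM2G387360 was at 4.30 (SE 0.63), and its starchy endosperm levels were 0 and 0.53 TPM at 22 DAP and 1.13 and 8.17 TPM at 18 DAP. Its unadjusted p by edgeR's quasi-likelihood test was 0.00035 with the replicate block and 0.046 without it. In the other direction, GRMZM2G045239 was at -6.68 (SE 1.25) and GRMZM2G011078 at -6.36 (SE 1.43), both with at most 12.3 TPM in starchy endosperm.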
